A study of Mus musculus with 4 samples.

Results

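The receptors for the haematopoietic growth factors were followed in CD11b+ spleen cells of mice after repeated social threat. The genes are Csf1r, Csf2ra, Csf2rb, Csf2rb2, Csf3r, Flt3, Kit, Il3ra and Il5ra. Every probe set that the platform annotation assigns to one of these symbols was taken, without regard to its value. This gave 9 of 18193 measured genes, read by 14 probe sets with a single symbol and by 1 probe set shared between Csf2rb and Csf2rb2. Expression was measured on 4 arrays of the Affymetrix MOE430 2.0 type, a single-colour platform on which several probe sets can target the same gene. Each array held the pooled RNA of 5 mice, with 2 pools of control mice in a low-threat environment and 2 pools of mice exposed repeatedly to social threat. All pools were CD11b+ splenocytes, and the sources used here give no strain, sex, age or method of cell isolation. No source says how the mice were assigned to pools.

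Haematopoietic growth factors keep blood cell precursors alive, drive their division and set the functions of mature myeloid cells. Csf1r, Flt3 and Kit are receptor tyrosine kinases for M-CSF and IL-34, for FLT3 ligand and for stem cell factor. Csf3r binds G-CSF as a homodimer, while Csf2ra, Il3ra and Il5ra are the alpha chains that give GM-CSF, IL-3 and IL-5 their specificity. These alpha chains signal with the beta common chain Csf2rb, and mice carry a further beta chain, Csf2rb2, that serves IL-3. In the spleen Csf1r marks monocytes and macrophages, Csf3r neutrophils and Flt3 dendritic cells and their progenitors, while Kit marks stem cells, early progenitors and mast cells.

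The arrays of a group resembled each other more closely than those of different groups, with Pearson's r across probe sets of at least 0.9966 within a group and at most 0.9904 between groups. Array medians lay between 4.41 and 4.43 on the log2 scale, and levels near the median cannot be separated from background. Itgam, which encodes CD11b, stood at 10.47 and 11.01 in the control pools and at 11.64 and 11.59 in the social threat pools, so the antigen of the isolation was present in every pool. Transcripts of other cells were present too, among them Cd79b of B cells at 9.10 and 9.04 in the control pools. In bulk RNA, fewer cells of a type and less RNA per cell cannot be told apart.

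Flt3 and Kit were the receptors with the largest falls after social threat, Csf1r and Csf3r fell by less, and the beta chains Csf2rb and Csf2rb2 rose. A gene was read on its brightest probe set, the one with the highest mean over the arrays, and was called higher or lower at a limma adjusted p under 0.05. Of the 9 receptor genes 4 fell and 2 rose. The share of all genes called this way was 21.1%, with 11.7% lower and 9.4% higher. Among genes with a level above the array median, where 8 of the 9 receptors lie, it was 33.3%, with 18.6% lower and 14.6% higher. The median log2 fold change of the 9 receptors was -0.26, beside -0.02 for all genes. The pools of the groups did not overlap for 8 of the 9 receptors, as was the case for 58.2% of all genes and for 71.1% of those above the array median. The change reached 1.5-fold in 3 of the called receptors, Flt3, Kit and Csf2rb2. Of all genes, dim ones included, 7.51% were called at that size. Csf2rb2 only just passed this limit, at 1.502-fold.

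**Figure D1:**
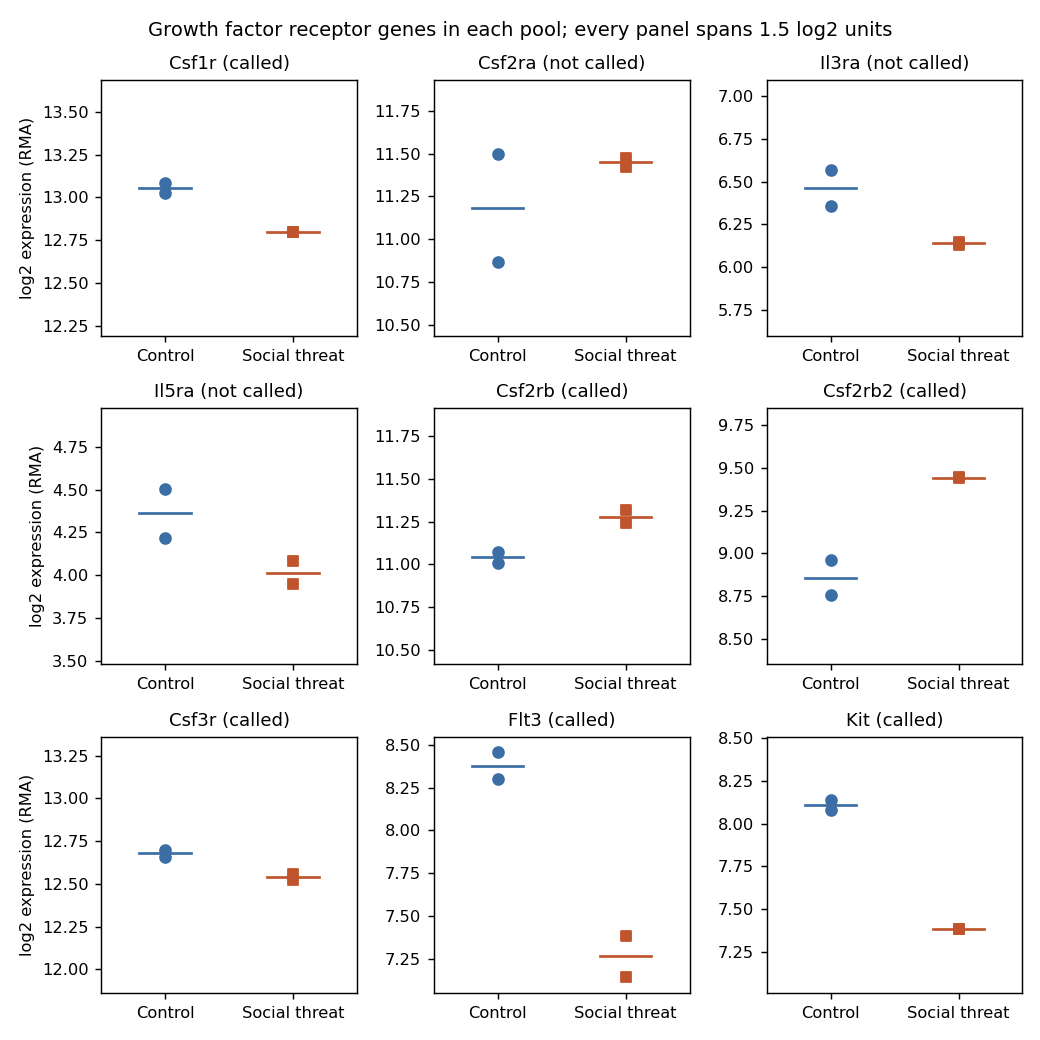
Log2 expression of the 9 receptor genes in each pool, with control pools as blue circles, social threat pools as orange squares and the mean of the 2 pools of a group as a line. Each panel spans 1.5 log2 units, so distances can be compared between panels: Flt3 and Kit are separated most widely downward, Csf2rb2 upward, and the Csf2ra groups overlap.

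The proximal promoters of the receptors with the largest falls, Flt3 and Kit, and of the one with the largest rise, Csf2rb2, are shown here because these genes carry the contrast in the data. Each runs over the 250 bases before the gene's start, 5′ to 3′ on the gene's strand, from RefSeq on GRCm38.p6. The table held 7 of the 9 receptor genes. Capitals mark GAGGAA on either strand, the core bound by PU.1, the myeloid factor encoded by Spi1.
Flt3, chr5:147400490-147400739, minus strand: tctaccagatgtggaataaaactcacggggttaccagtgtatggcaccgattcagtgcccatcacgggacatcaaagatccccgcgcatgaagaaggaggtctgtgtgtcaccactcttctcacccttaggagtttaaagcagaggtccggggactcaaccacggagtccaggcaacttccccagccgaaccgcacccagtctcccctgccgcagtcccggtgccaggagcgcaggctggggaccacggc
Kit, chr5:75574737-75574986, plus strand: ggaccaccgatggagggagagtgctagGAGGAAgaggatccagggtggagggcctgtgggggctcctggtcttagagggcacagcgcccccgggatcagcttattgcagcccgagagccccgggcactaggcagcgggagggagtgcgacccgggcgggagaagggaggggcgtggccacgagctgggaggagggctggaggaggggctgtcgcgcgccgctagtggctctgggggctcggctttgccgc
Csf2rb2, chr15:78305722-78305971, minus strand: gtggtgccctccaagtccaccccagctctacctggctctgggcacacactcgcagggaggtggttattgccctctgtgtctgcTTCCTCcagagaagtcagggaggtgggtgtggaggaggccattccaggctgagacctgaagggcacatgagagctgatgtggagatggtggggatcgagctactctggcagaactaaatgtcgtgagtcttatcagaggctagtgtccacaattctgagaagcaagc
These letters occurred once in the Kit window, starting 223 bases before the gene, and once in the Csf2rb2 window on the opposite strand, starting 167 bases before it. The Flt3 window held no match. Among all 32851 promoter windows of this length, 23.3% held a match. Of the receptor windows not shown, that of Csf2ra held 2 matches and that of Csf3r held 1. The windows of Il3ra and Il5ra held no match. The RUNX-type letters TGTGGT were found in 4614 of all windows and the GATA-type letters AGATAA in 3281. Neither was found on either strand of the 3 windows shown, while the Il5ra window held AGATAA 1 time. Only these exact letters were searched, so other forms of such sites may be present. A match is a description of the letters only. On the arrays Spi1 itself stood at 11.56 and 11.51 in control pools and at 11.62 and 11.61 in social threat pools and was not called (limma adjusted p = 0.189).

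Flt3, the tyrosine kinase receptor of dendritic cell and lymphoid progenitors, showed the largest change of the receptors. It was read by only 1 probe set, so no other can be set beside it. Its level was 8.46 and 8.30 in the control pools and 7.38 and 7.14 in the social threat pools. Both social threat pools lay below both control pools, with a gap of 0.92 between the nearest pools. Flt3 fell from 8.38 ± 0.11 to 7.26 ± 0.17 (mean ± SD, n = 2 pools), a log2 fold change of -1.12 (SE 0.10, 95% interval -1.35 to -0.89) or 2.17-fold, with a limma adjusted p of 7.37e-05. Only 73 of 18193 genes had a lower log2 fold change.

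Conventional dendritic cell markers moved in the same pools. Of 9 measured markers 8 fell, and the log2 of their summed level was 12.37 and 12.40 in control pools and 11.19 and 11.12 in social threat pools. Among them the lectin gene Cd209a fell by 2.00 and Ccr7, which guides dendritic cells to T cell zones, by 1.41. B cell markers fell for 7 of 8 genes, from a summed level of 11.70 and 11.74 to 10.70 and 10.64. Of 6 plasmacytoid dendritic cell markers 3 fell, among them Ly6d, which fell by 0.99, while Siglech, a defining gene of that cell, stood between 5.23 and 5.47 in all pools. The part of these markers in the fall of Flt3 was not tested.

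Kit, the stem cell factor receptor, was read by 2 probe sets. The brighter stood at 8.14 and 8.08 in control pools and at 7.38 and 7.38 in social threat pools. The pools of each group almost coincided and the groups were 0.69 apart at their nearest. Kit fell by 0.72 (SE 0.08, 1.65-fold) with a limma adjusted p of 0.000226, and 380 genes had a lower log2 fold change. The dimmer probe set stood at 6.09 and 6.25 against 5.70 and 5.86, a difference of -0.39 (SE 0.12) that was not called (limma adjusted p = 0.0555). Its groups did not overlap, and its interval of -0.66 to -0.12 lies on the same side of 0.

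Kit was set beside the markers of the cells that carry it. Of 7 measured stem and progenitor markers 1 rose and 3 fell, with summed levels of 7.88 and 7.77 in control pools and 7.87 and 7.85 in social threat pools. Erg, a transcription factor gene of stem cells and megakaryocytes, rose by 1.80 on 1 of its 2 probe sets, with 0.38 and no call on the other, while Procr, the protein C receptor of stem cells, fell by 1.01. Without Procr, the brightest of these markers, the summed levels were 7.11 and 7.08 against 7.54 and 7.56. The rise of this sum rested on the called probe set of Erg, at 4.79 and 4.73 against 6.58 and 6.54. It is therefore no rise of these markers as a group. Cd34 stood between 3.52 and 3.73 and Mecom between 3.50 and 3.78, below the array medians. The mean of Slamf1, 4.36, lay below them too. Of 9 basophil and mast cell markers only Mcpt8, a basophil protease gene, was called, with a rise of 0.57. It stood at 4.37 and 4.13 in control pools and at 4.89 and 4.75 in social threat pools. These levels are near the array medians and cannot be separated from background. The mast cell genes Cpa3, Tpsb2, Cma1 and Mcpt4 lay at or below 4.62 in every pool, which is near or under the array median. The summed level of the 9 basophil and mast cell markers, 12.09 and 12.10 against 12.13 and 12.11, was set almost wholly by the bright gene Hdc, which neutrophils also express. Erythroid genes rose for 7 of 8 markers, from a summed level of 9.94 and 9.81 to 10.99 and 10.93, in the pools where Kit was lower. The part of these cells in the fall of Kit was not tested.

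The beta chains, through which GM-CSF, IL-3 and IL-5 signal, were the receptors that rose. Csf2rb2, the IL-3 beta chain of mice, stood at 8.96 and 8.75 in control pools and at 9.44 and 9.45 in social threat pools. Both social threat pools were higher, with a gap of 0.48. It rose by 0.59 (SE 0.08) with a limma adjusted p of 0.000594, and 705 genes had a higher log2 fold change. Csf2rb, the beta common chain, stood at 11.07 and 11.01 against 11.32 and 11.24 in its brighter probe set. It rose by 0.24 (SE 0.04, 1.18-fold, limma adjusted p = 0.0042). Its second probe set stood at 9.98 and 9.88 against 10.38 and 10.31 and rose by 0.42 (SE 0.05, limma adjusted p = 0.00058). The brighter Csf2rb probe set was no longer called without social threat pool 1 (adjusted p = 0.101) or without the variance trend (0.142), while the dimmer one was called in both settings (0.0246 and 0.0313). Here and for every value given without 1 pool, the group reduced to a single pool is assumed to vary like the other group, so these p-values describe how the call depends on that pool and are no independent test.

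Csf2rb and Csf2rb2 are neighbouring, closely related genes, and a probe set assigned to both read 8.53 and 8.83 in control pools and 9.09 and 8.90 in social threat pools. Its difference of 0.31 (SE 0.10) had the same direction but was not called (limma adjusted p = 0.0805). Whether the probe sets with a single symbol also detect the other gene was not analysed here, so the separate values of the pair are uncertain. Neutrophil and neutrophil precursor markers rose in the same pools. All 7 measured precursor markers rose, with summed levels of 9.70 and 9.57 against 13.28 and 13.21, and 9 of 10 neutrophil markers rose, from 16.18 and 16.17 to 16.62 and 16.62. Their part in the rise of the beta chains was not tested.

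Csf1r, the M-CSF receptor of monocytes and macrophages, fell on all 3 of its probe sets. The brightest stood at 13.08 and 13.03 in control pools and at 12.80 and 12.80 in social threat pools. The second stood at 11.85 and 11.80 against 11.34 and 11.35. The third stood at 11.35 and 11.37 against 10.87 and 10.89. In each probe set both social threat pools lay below both control pools, and the pools of a group differed by less than 0.1.

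The sizes of the Csf1r falls differed between probe sets. The brightest fell by 0.26 (SE 0.03, 1.19-fold, limma adjusted p = 0.000144). The dimmer ones fell by 0.48 each (SE 0.03 and 0.04, both 1.39-fold, limma adjusted p = 1.57e-05 and 2.26e-05). The 95% interval of the brightest, -0.31 to -0.20, did not reach those of the others, which ran from -0.56 to -0.40. Without the variance trend the brightest probe set was not called (adjusted p = 0.107), while the others were (0.0165 and 0.0155).

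Macrophage and monocyte markers did not move as one in these pools. Red pulp macrophage markers fell for 9 of 13 genes and rose for 1, with summed levels of 14.06 and 14.09 against 13.68 and 13.69. Axl, a receptor for dying cells, fell by 1.19 on 1 of its 2 probe sets, with -0.10 and no call on the other. C1qa, a complement chain, fell by 0.60, while Cd5l, a secreted macrophage protein, rose by 0.49. Patrolling monocyte markers fell for 6 of 8, from 13.52 and 13.60 to 13.16 and 13.14. Classical monocyte markers rose for 2 of 6 and fell for 1, with summed levels of 14.12 and 14.09 against 14.36 and 14.37. Without Chil3, the brightest of them, the levels were 13.45 and 13.37 against 13.43 and 13.41 and overlapped. Chil3 rose by 0.59 and Ms4a4c fell by 0.34. Their part in the fall of Csf1r was not tested.

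Csf3r, the G-CSF receptor that drives neutrophil production, was bright in every pool and changed little. It stood at 12.66 and 12.70 in control pools and at 12.56 and 12.52 in social threat pools. The groups were separated by 0.11. Csf3r fell by 0.14 (SE 0.03, 1.10-fold) with a limma adjusted p of 0.00629. The call was lost without social threat pool 2 (adjusted p = 0.112) and without the variance trend (0.339). With quantile normalization repeated the difference was -0.0928 (adjusted p = 0.0446). Its direction differed from that of the neutrophil markers given above, of which Mmp8, a granule collagenase, rose by 1.34 and Ltf, lactoferrin, by 1.00. Camp, which encodes cathelicidin, rose by 0.68, and Il1r2, the decoy receptor for IL-1, fell by 0.20. The precursor genes Prtn3 and Mpo, which encode enzymes of azurophilic granules, rose by 3.58 and 4.85.

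None of the alpha chains, which give each ligand its specificity, was called. Csf2ra, the GM-CSF alpha chain, stood at 10.87 and 11.50 in control pools and at 11.47 and 11.43 in social threat pools on its brighter probe set. Control pool 1 was low and the groups overlapped. The difference of 0.27 had an interval of -0.08 to 0.61 (limma adjusted p = 0.325). It became -0.0495 without control pool 1 and 0.58 without control pool 2 (limma adjusted p = 1.95e-05). The dimmer probe set stood at 7.83 and 7.83 against 7.77 and 7.48, a difference of -0.20 with an interval of -0.44 to 0.03. The Csf2ra probe sets therefore differed in sign, and no direction can be given for this gene. Control pool 1 was also the lower control pool for Itgam.

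Il3ra, the IL-3 alpha chain, stood at 6.57 and 6.36 in control pools and at 6.15 and 6.13 in social threat pools. The groups did not overlap, but the control pools differed by as much as the gap between the groups, 0.21. The difference of -0.32 (SE 0.11, interval -0.58 to -0.07) was not called (limma adjusted p = 0.0896). Without control pool 2 the adjusted p was 0.0227, and without the other pools it lay between 0.241 and 0.399.

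Il5ra, the IL-5 alpha chain of eosinophils and some B cells, stood at 4.50 and 4.22 in control pools and at 3.95 and 4.08 in social threat pools. It was the only receptor whose mean lay below the median of all values, so its level cannot be separated from background. The difference of -0.35 (SE 0.14, interval -0.66 to -0.04) was not called (limma adjusted p = 0.139). Without control pool 1 it was -0.20 (adjusted p = 0.437) and without control pool 2 it was -0.49 (0.0444), while the adjusted p was 0.511 and 0.287 without social threat pools 1 and 2. Of 5 measured eosinophil markers 3 fell, with summed levels of 9.42 and 9.39 against 8.74 and 8.79. Ccr3, the eotaxin receptor, fell by 0.98, while the granule genes Epx and Prg2 lay at or below 4.74 in every pool. The part of these markers in the Il5ra values was not tested.

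**Figure D2:**
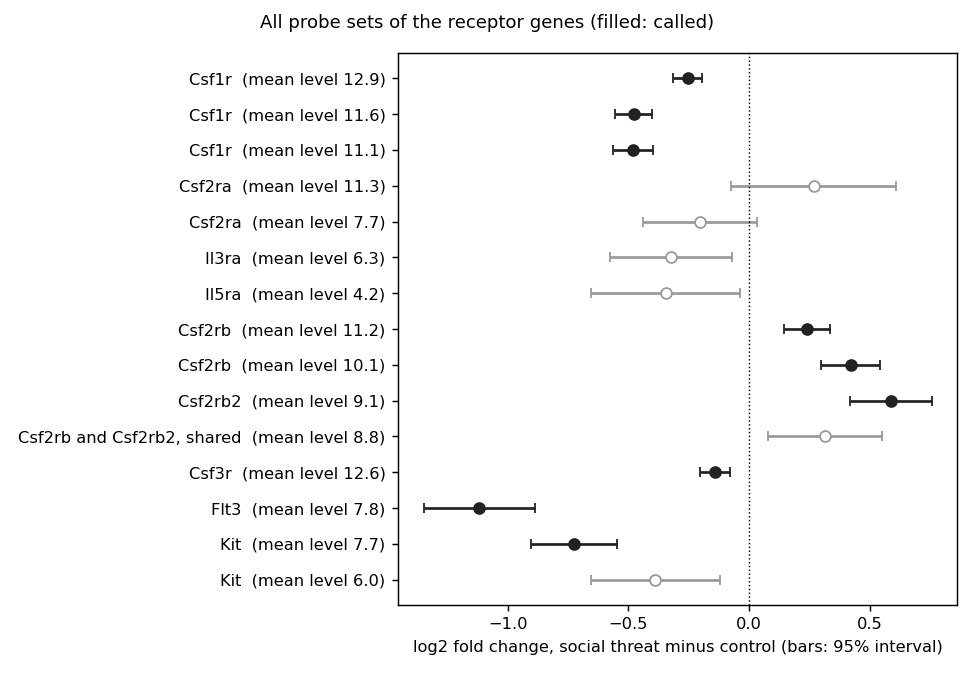
Log2 fold change, social threat minus control, of the 15 probe sets of the receptor genes, with 95% intervals from limma and the mean log2 level of each probe set in brackets. Filled points were called: 6 lie below 0 and 3 above, while the Csf2ra probe sets lie on either side of 0.

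Over single probe sets, 9 of the 14 with 1 symbol were called, 6 lower and 3 higher. Of all 45037 probe sets, dim ones included, 15.8% were called, 8.67% lower and 7.09% higher. All of the 14 but the Il5ra probe set lay above the median of all values, where calls are more frequent. Of genes above the array median 33.3% were called, beside 21.1% of all genes. No receptor had probe sets called in opposite directions. The 5 that were not called were both of Csf2ra, the dimmer of Kit, and those of Il3ra and Il5ra.

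The ligands of these receptors were mostly dim in the CD11b+ cells, and Csf1 was the exception. Csf1, which encodes M-CSF, stood at 11.34 and 11.35 in control pools and at 10.96 and 10.92 in social threat pools. It fell by 0.41 (SE 0.04, limma adjusted p = 6.89e-05), and 3 of its 4 probe sets were called lower. Of the other 6 measured ligands none was called. Kitl, which encodes stem cell factor, stood between 5.10 and 5.41 in the pools. Il34, Csf2, Csf3, Il3 and Il5 lay between 2.97 and 4.06, below the array medians. Flt3l was not analysed here. The ligand genes had a median log2 fold change of -0.15.

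Of 7 other measured receptor chains of this class 2 were called lower and 0 higher, with a median of -0.03. Over all genes 11.7% were called lower and 9.4% higher. Among genes above the array median, where all but 1 of these chains lie, the shares were 18.6% and 14.6%. Il7r, the IL-7 receptor chain of lymphocytes, fell by 1.04 (SE 0.09) and Il6st, the signal transducer gp130, by 0.82 (SE 0.07). Both probe sets of Il7r and all 4 of Il6st were called. Crlf2, the TSLP receptor chain, stood at 11.39 and 11.44 against 11.34 and 11.36 and was not called (limma adjusted p = 0.294). Epor, the erythropoietin receptor, stood between 5.80 and 5.92 in the pools and was not called either (adjusted p = 0.91).

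The kinases and adaptors next to the receptors moved by small amounts. Of 16 measured genes 5 fell and 1 rose, with a median of -0.10. All 16 lay above the array median, where 18.6% of genes were called lower and 14.6% higher. Jak2, the kinase bound to the beta common chain, fell from 9.90 and 9.82 to 9.61 and 9.52, by 0.29 (SE 0.06, limma adjusted p = 0.00765). Pik3r1 and Pik3cd, subunits of phosphoinositide 3-kinase, fell by 0.38 (SE 0.07) and 0.26 (SE 0.05). For Pik3r1 2 of 4 probe sets were called lower and for Pik3cd 2 of 6. Their other probe sets were not called and reached up to 0.03 and 0.26. The adaptor gene Shc1 rose by 0.41 (SE 0.08).

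Negative regulators of these receptors moved both ways, with 5 of 12 lower, 2 higher and a median of -0.11. All 12 lay above the array median, where the shares were 18.6% lower and 14.6% higher. Socs2, a STAT5-induced suppressor of cytokine signalling, stood at 6.25 and 6.27 against 5.21 and 5.25 and fell by 1.03 (SE 0.11). For Socs2, 2 of 6 probe sets were called. Cblb, a ubiquitin ligase, fell by 0.54 (SE 0.09) on the brightest of 3 called probe sets. Cbl, the ubiquitin ligase that marks Csf1r and Kit for degradation, rose by 0.34 (SE 0.06), also on 3 of 3. The adaptor gene Dok2 rose by 0.69 (SE 0.10). Cish, another STAT5-induced suppressor, stood between 6.52 and 6.76 and was not called (limma adjusted p = 0.728, chosen after its value was seen).

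Known target genes of STAT5, the factor that most of these receptors activate, were all called but in opposite directions. Of 9 measured genes 6 fell and 3 rose, with a median of -0.28. All 9 lay above the array median, where 18.6% of genes were called lower and 14.6% higher. Ccnd3, which encodes cyclin D3, rose by 0.97 (SE 0.05). For Ccnd3, 2 of 3 probe sets were called higher. Ccnd2, which encodes cyclin D2, fell by 0.74 (SE 0.07), and 5 of 7 Ccnd2 probe sets were called lower. Osm, a cytokine gene, fell from 9.18 and 9.19 to 8.69 and 8.69, and Myc fell by 0.58 (SE 0.08).

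Of 10 measured transcription factor genes known to act on receptor genes of this kind, 2 rose and 2 fell, with a median of 0.04. All 10 lay above the array median, where 14.6% of genes were called higher and 18.6% lower. Myb, a factor of progenitor cells, rose by 1.04 (SE 0.07) on the brightest of its 3 called probe sets. Tal1, a factor of stem and erythroid cells, rose by 0.83 (SE 0.12). Irf8, which directs monocyte and dendritic cell development, fell by 0.78 (SE 0.06), and Cebpa, a factor of granulocyte and monocyte precursors, by 0.33 (SE 0.08).

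**Figure D3:**
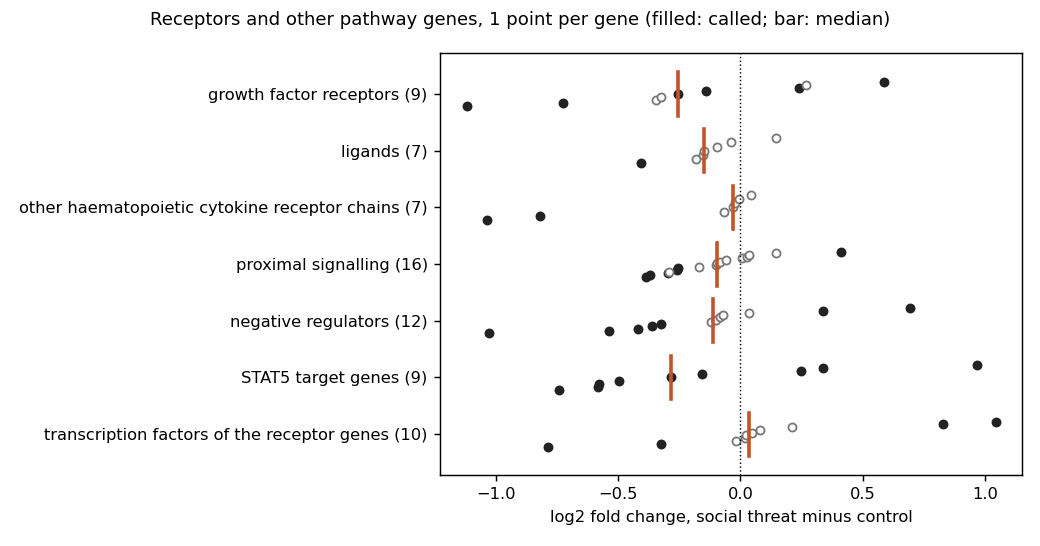
Log2 fold change, social threat minus control, of the receptor genes and of the other pathway genes, 1 point per gene read by its brightest probe set, with called genes filled and the median of each list as a bar. The lists spread on both sides of 0, and all medians lie between -0.28 and 0.04.

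Markers of the remaining cell types are given for the same pools. These and the earlier marker counts stand beside 18.6% lower and 14.6% higher among all genes above the array median. T cell markers fell for 7 of 7 genes, from summed levels of 10.14 and 10.20 to 9.21 and 9.14, with Cd5 lower by 1.71. NK cell markers fell for 5 of 6, from 11.04 and 10.92 to 10.09 and 10.06, with the receptor gene Klrd1 lower by 1.28. Megakaryocyte and platelet markers rose for 5 of 6, from 9.16 and 9.08 to 9.95 and 9.97, with Ppbp higher by 1.00. Among CD11b and its partners Itgam rose by 0.88 and Itgb2, its beta chain, by 0.22, while Lyz2, the lysozyme gene of myeloid cells, stood between 13.60 and 13.72 and was not called (limma adjusted p = 0.141).

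**Figure D4:**
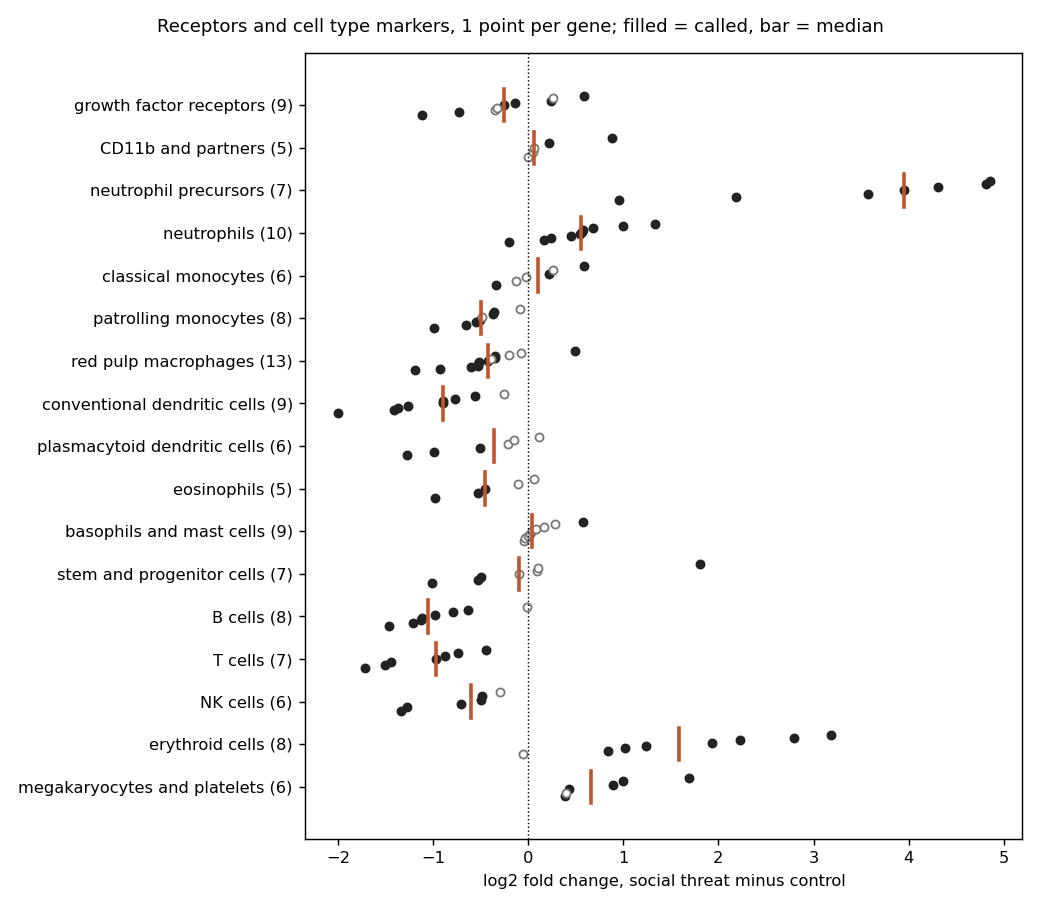
Log2 fold change, social threat minus control, of the receptor genes and of cell type markers, 1 point per gene read by its brightest probe set, with called genes filled and the median of each list as a bar. Neutrophil precursor and erythroid markers lie furthest to the right and those of B cells, T cells and conventional dendritic cells furthest to the left by their medians, while the receptor genes lie on both sides of 0.

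The genes whose profile over the 4 arrays lay closest to that of Flt3, each centred on its own mean, were Skap1, Ndnf and Blk, at root mean square distances of 0.019, 0.024 and 0.038 log2 units. Skap1 is an adaptor gene of T cells and Blk a kinase gene of B cells. In the social threat pools Skap1 lay near the array medians, at 4.42 and 4.18. Blk stood at 8.19 and 8.14 in control pools and at 7.15 and 6.94 in social threat pools. The genes closest to Csf2rb2 were Fam72a, Rab6a and B4galt6, at distances of 0.013, 0.014 and 0.018. Fam72a lay near the array medians, at 4.26 and 4.08 in control pools and 4.75 and 4.73 in social threat pools. Rab6a, a GTPase gene of Golgi traffic, stood at 10.08 and 9.85 against 10.57 and 10.57. Over 4 arrays such a likeness mostly restates the difference between the groups and the order of the pools within them.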

How the data were processed

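The authors deposited log2 expression values for each probe set, and RMA is named, with no version, in the submitters' processing notes. RMA corrects background, equalises array distributions and compresses differences of dim probe sets, and the table holds no detection calls. The number of arrays limits the precision. Groups and pool numbers came from the sample labels.

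Of 45037 probe sets, 34945 had 1 gene symbol in the platform annotation, 932 had several and 9160 were unnamed here. Social threat minus control was fitted to all probe sets with limma 3.58.1 in R 4.3.3 (lmFit, eBayes with a mean-variance trend, residual df 2, prior df 7.1). Two-sided tests were used, with Benjamini-Hochberg adjustment over all probe sets and calls at an adjusted p under 0.05. The code was tested on simulated data. The p-values rest on the spread between pools, not mice. With prior df 7.1 against residual df 2, most of that spread is borrowed from other probe sets of similar level. A processing batch cannot be told apart from the groups.

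A gene was read on the brightest of its probe sets by mean level. Of 203 entries in the pathway and marker lists, 181 were measured. Named were all receptors and ligands, up to 4 genes per pathway list and 3 per marker list (called genes and smallest p first), Itgam and the 3 genes most like the largest rise and fall. Markers described at a low level or in the other direction, and Spi1, were chosen after their values were seen. The receptors and lists were chosen with earlier results of these data known. Summed marker levels without the brightest gene were added after seeing the data. Alternatives changed the variance moderation, scaling, filter, probe set rule and pools.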

Additional observations from a re-analysis of the deposited data

How the results depend on the processing

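The 6 called receptor genes became 3 without the variance trend and 3 when a change of at least 1.5-fold was also required, and lay between 5 and 9 without 1 pool, where the lone pool of a group is assumed to vary like the other group. The count was 7 with the mean of a gene's probe sets and 6 under robust moderation, median centring, repeated quantile normalization, the filter on low values and the probe set with the smallest p. The gene gained with the mean was Il3ra. Its 1 probe set gave the same -0.32, but the limma adjusted p was 0.0286 in that fit over genes instead of probe sets. Over all probe sets the 7099 calls became 4689 without the variance trend and between 3171 and 8721 without 1 pool, with the lowest counts without a social threat pool. Flt3, Kit and Csf2rb2 were called in all 11 alternatives, with log2 fold changes from -1.24 to -0.996, -0.75 to -0.56 and 0.48 to 0.69. These calls are for the brightest probe set or the mean of a gene's probe sets. The dimmer Kit probe set was called with the pool number as a block and with the filter on low values. It was not called without the variance trend or under robust moderation, median centring or repeated quantile normalization. Csf2ra alone changed sign, and lay between -0.0495 and 0.58 without 1 pool, the ends being without control pool 1 and control pool 2. Over single receptors, 88 of 98 alternative values kept their direction and side of the threshold, 5 lost the call, 4 gained it and 1 reversed. Pool numbers 1 and 2 occur in each group, but pools with the same number deviated together only weakly (r = 0.05 across probe sets), and no label pairs them. With the pool number as a replicate block, 6 receptor genes, 10 of their probe sets and 8168 of all probe sets were called. With 1 array per pool and no detection calls, dim genes such as Il5ra have no usable lower limit.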
